A study of Rattus norvegicus with 18 samples.

Results

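Transcripts of 10 genes that handle cholesterol and stored lipid in glia were followed through 18 RNA-seq libraries of primary rat astrocytes and microglia exposed to amyloid-β fibrils. The genes are Apoe, Abca1, Abcg1, Nr1h2, Nr1h3, Ch25h, Lpl, Plin2, Soat1 and Lcat, chosen by symbol from the per-gene count tables. All 10 symbols are among the 17930 symbols of the tables, and all 10 passed the filter on low counts in both cell types. The libraries form 6 groups of 3: astrocytes and microglia, each untreated (control), with Aβ42 fibrils or with Aβ40 fibrils for 24 h. Every group is wild type (WT), the controls included. The cells came from the cortex of Sprague-Dawley rat pups at postnatal day 2, and all groups were moved to serum-free medium before the fibrils were added at a single concentration. Microglia were shaken off a mixed glial culture, and astrocytes were the layer left after a further shake meant to remove oligodendrocyte precursors, so neither culture was sorted by a marker. Nothing in the labels says that replicates came from separate cultures, and the p-values therefore measure the spread between these libraries, which may be technical.

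Apolipoprotein E is the main lipid carrier that glia secrete. The transporters ABCA1 and ABCG1 load cholesterol onto such particles, and LCAT esterifies it there so that the particles mature. Inside the cell the liver X receptors LXRβ (Nr1h2) and LXRα (Nr1h3) sense oxysterols and switch on Apoe, Abca1 and Abcg1, while CH25H makes the oxysterol 25-hydroxycholesterol. Lipoprotein lipase (Lpl) releases fatty acids from lipoproteins, SOAT1 esterifies surplus cholesterol for storage, and perilipin 2 (Plin2) coats the lipid droplets in which it is kept.

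Apoe fell 2.02- to 2.47-fold in both cell types with both fibrils, and Lpl fell in all 4 comparisons with control, in microglia to under 1% of its control level. In microglia the 2 efflux transporters and Soat1 fell too, while Ch25h and Nr1h3 rose. In astrocytes Plin2 rose with both fibrils, and so did Lcat and Nr1h3. A gene is called changed here when edgeR's quasi-likelihood F test gives it a p under 0.05 after Benjamini-Hochberg adjustment over all genes tested. With Aβ42, 6 of the 10 genes were called in astrocytes, 3 higher and 3 lower, where 37.0% of all genes tested were called (16.5% higher and 20.4% lower). With Aβ40, 5 were called in astrocytes, 3 higher and 2 lower, against 33.3% of all genes (14.9% and 18.4%). In microglia 7 were called with Aβ42, 2 higher and 5 lower, against 53.7% (27.1% and 26.6%). With Aβ40, 9 were called in microglia, 2 higher and 7 lower, against 41.0% (19.6% and 21.4%). When a change of at least 2-fold was also asked for, 3 and 2 genes remained in astrocytes with Aβ42 and Aβ40, against 19.8% and 17.8% of all genes, and 3 and 4 in microglia, against 21.3% and 17.6%. The fibrils thus moved a large share of all genes, and the counts are to be read against that share. In astrocytes, treated and control libraries did not overlap for 9 (Aβ42) and 5 (Aβ40) of the 10 genes, beside 45.7% and 43.2% of all genes. In microglia they did not overlap for 8 and 9 of the 10, beside 54% and 59.5% of all genes. Both fibrils called 5 of the 10 genes in astrocytes and 7 in microglia, where 30.6% and 32.1% of all genes were called with both, but the 2 comparisons of a cell type share their 3 control libraries.

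**Figure D1:**
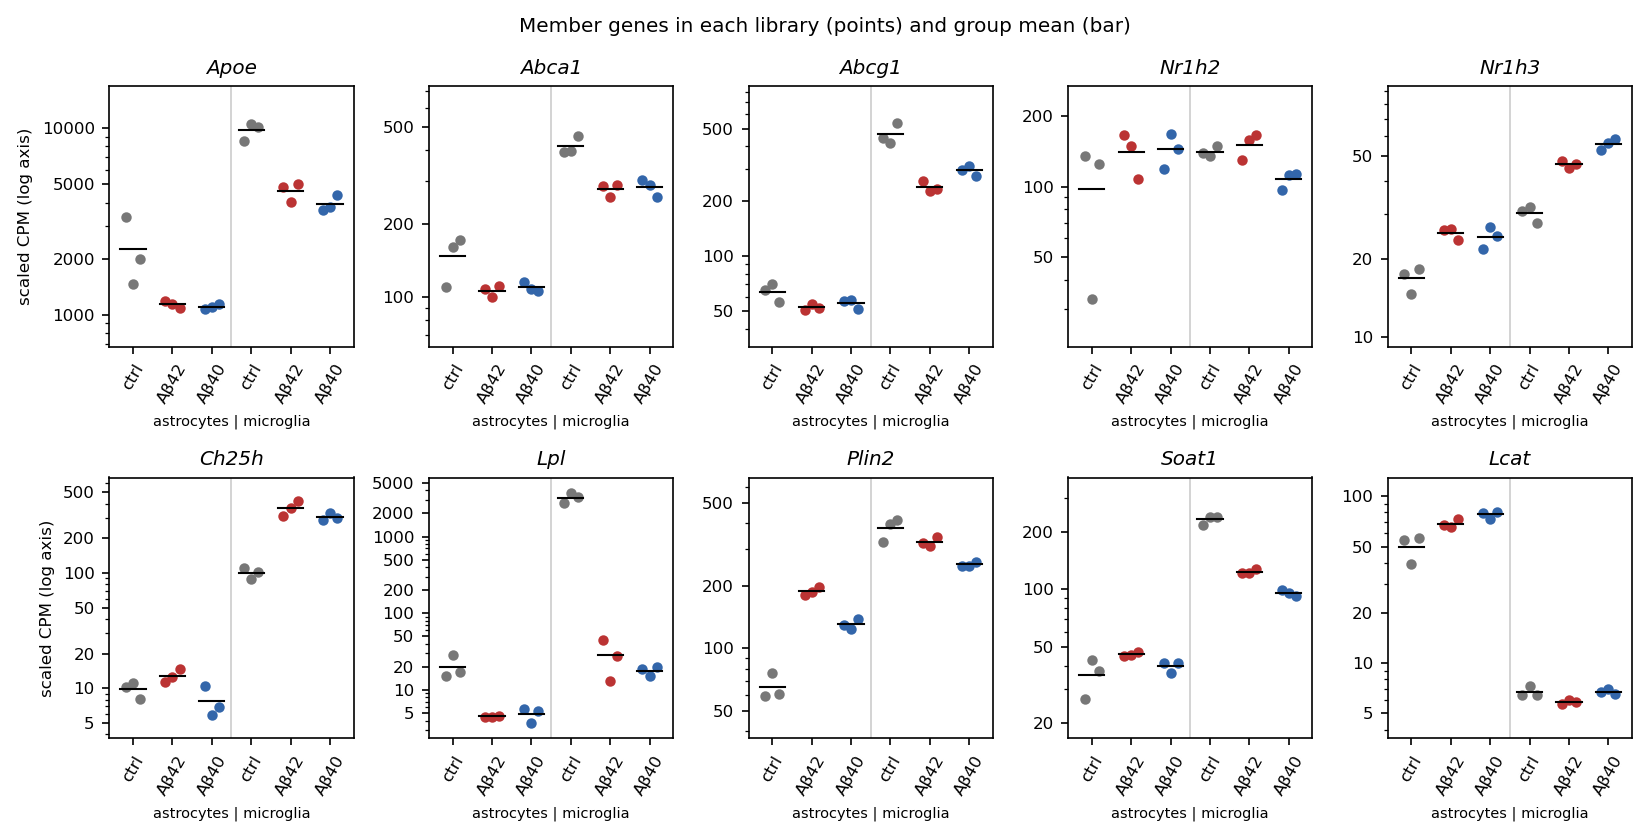
CPM (counts per 1000000 counts on genes) scaled over all 18 libraries (log axis) of the 10 genes, 1 panel a gene; points are libraries, bars are means of 3, grey control, red Aβ42 and blue Aβ40, with astrocytes left of the line and microglia right. Lpl drops in treated microglia from a mean of 3221 to 28.5 and 17.9, Plin2 rises in treated astrocytes, and the Apoe points of both treated groups sit below the controls in each cell type.

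The promoters of 4 genes are shown because 2 of the genes fell together (Abca1 and Apoe), 1 rose beside them (Ch25h) and 1 rose in astrocytes but was not called higher in microglia (Plin2). RefSeq windows on the GRCr8 build, from 250 bases before to 50 bases after a start site, were found for 8 of the 10 symbols and not for Lpl and Abcg1. Apoe has 3 such windows and Plin2 has 2. The 250 bases before the start are given 5′ to 3′ on the gene's strand, and capitals mark matches to the motifs searched.
Abca1, chr5:72596474-72596723, minus strand: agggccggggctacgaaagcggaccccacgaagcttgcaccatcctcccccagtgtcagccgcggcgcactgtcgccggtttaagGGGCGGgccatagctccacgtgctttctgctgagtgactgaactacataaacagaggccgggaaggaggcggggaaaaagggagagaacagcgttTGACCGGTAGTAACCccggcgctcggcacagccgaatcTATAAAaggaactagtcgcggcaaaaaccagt
Apoe, chr1:88484700-88484949, minus strand: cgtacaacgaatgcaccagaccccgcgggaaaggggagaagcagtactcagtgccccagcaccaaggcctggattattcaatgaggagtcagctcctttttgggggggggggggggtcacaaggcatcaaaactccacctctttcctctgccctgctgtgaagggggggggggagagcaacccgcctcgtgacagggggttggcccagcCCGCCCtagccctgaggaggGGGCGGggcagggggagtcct
Ch25h, chr1:241429367-241429616, minus strand: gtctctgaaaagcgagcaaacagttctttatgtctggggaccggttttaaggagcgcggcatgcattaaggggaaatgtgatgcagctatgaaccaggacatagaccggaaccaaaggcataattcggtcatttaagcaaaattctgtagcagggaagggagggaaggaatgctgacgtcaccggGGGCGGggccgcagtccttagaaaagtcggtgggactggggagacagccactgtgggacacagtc
Plin2, chr5:106229019-106229268, minus strand: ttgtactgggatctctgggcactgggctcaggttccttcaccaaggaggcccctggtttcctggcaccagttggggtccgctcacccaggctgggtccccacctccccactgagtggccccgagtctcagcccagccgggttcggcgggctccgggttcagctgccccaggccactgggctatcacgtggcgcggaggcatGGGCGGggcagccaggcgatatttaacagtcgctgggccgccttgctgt

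The motifs were searched on both strands of the whole windows, and the shares are those of 33469 windows of the same length. The LXR repeat, written as GGTNA and GGTCA with 5 bases between, is in 0.23% of them and matched Abca1 alone of the 8 genes, on the strand opposite to the gene, as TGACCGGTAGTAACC from 70 to 56 bases before the start. Its letters were written with the Abca1 element in mind, so this match is no independent result. The Abca1 window also holds TATAAA from 32 to 27 bases before the start, a motif in 14.2% of windows. The GC box GGGCGG, in 33.1% of windows, was found in the windows of 5 of the 8 genes, namely Apoe, Abca1, Ch25h, Plin2 and Soat1, and at 2 places in the Apoe window shown. The PPAR repeat (AGGNCA and AGGNCA with 1 base between, 0.415% of windows), NF-κB (GGG and TTTCC with 2 bases between, 1.53%), the interferon element (GAAA and GAAA with 2 bases between, 3.92%), AP-1 (TGANTCA, 7.33%) and SREBP (TCACN followed by CCAC, 1.12%) had no match in the windows of these 8 genes. No 2 matches overlapped, and a match or its absence describes only the letters of these windows.

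The libraries held 2271834 to 22274367 counts on genes, so 3 counts correspond to between 0.13 and 1.38 CPM (counts per 1000000 counts, scaled for library size). A pair of libraries stood apart from their groups, astrocyte control replicate 2 and microglia Aβ42 replicate 1, the latter with 2613723 counts. Without the first, 7 of the 10 genes were called in astrocytes with Aβ42 and 5 with Aβ40, beside 46.9% and 41.8% of all genes, and without the second 8 were called in microglia with Aβ42, beside 70.3%. Without both, the counts between cell types were 9 for the controls, 6 for the Aβ42 difference and 7 for the Aβ40 difference, beside 75.9%, 55.7% and 41.2% of all genes. The summed level of 12 microglial markers was 8410 to 9960 CPM in control microglia and 463 to 588 CPM in control astrocytes, and all 12 had counts in both. With Aβ42 that sum was 163 to 179 CPM in astrocytes and 2630 to 3490 CPM in microglia, and with Aβ40 it was 140 to 154 and 2960 to 3500 CPM. The microglial receptor Cx3cr1 averaged 26.0 CPM in control astrocytes, not far from the 36.8 CPM of control microglia, and Tmem119 averaged only 4.09 CPM in the latter. The 10 astrocyte markers summed to 9060 to 11000 CPM in control astrocytes, 5840 to 6790 CPM in treated astrocytes and 245 to 292 CPM over all microglia libraries. The astrocyte markers did not move alike: with control, Aβ42 and Aβ40 in turn, Gfap averaged 2840, 1320 and 1570 CPM and S100b 1710, 540 and 677 CPM, whereas Aqp4 averaged 1500, 1980 and 2160 CPM, Aldh1l1 38.7, 123 and 106 CPM and the glutamate transporter Slc1a2 5.38, 15 and 14.1 CPM. The 8 oligodendrocyte-lineage genes summed to 1730 to 2570 CPM in control astrocytes and, with no overlap, to 1270 to 1370 CPM in treated astrocytes, and to 1960 to 2170 CPM in control and 2180 to 2830 CPM in treated microglia. The neuron list was at 414 to 497 CPM in control and 224 to 328 CPM in treated astrocytes, and at 229 to 245 CPM in control and 315 to 376 CPM in treated microglia. The fibroblast list was at 59.8 to 75.1 CPM in control and 121 to 165 CPM in treated microglia, and at 187 to 276 CPM over all astrocyte libraries. Its genes did not move alike in microglia. With control, Aβ42 and Aβ40 in turn, Dcn averaged 0.427, 71.1 and 64.6 CPM and Lum 1.31, 7.05 and 6.47 CPM. By contrast, Col3a1 averaged 16, 8.92 and 3.36 CPM and Pdgfrb 6.04, 2.54 and 2.54 CPM. The endothelial list lay between 11.2 and 38.2 CPM, with Cldn5 at 0 throughout. The part of these shifts in the changes of the 10 genes was not tested. In bulk libraries such as these, fewer cells of a type and less of an RNA per cell cannot be told apart.

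Apoe, the secreted lipid carrier, was lower in every treated library than in every control of its cell type. In astrocytes its level was 3554, 1560 and 2144 CPM in the controls, 1260, 1213 and 1129 CPM with Aβ42 and 1126, 1186 and 1209 CPM with Aβ40. The controls were widely spread and the treated libraries were close together. The log2 fold change was -1.01 ± 0.24 (SE, adjusted p = 0.00631) with Aβ42 and -1.04 ± 0.24 (adjusted p = 0.00586) with Aβ40. Control replicate 1, the highest library, carried part of this size: without it the change with Aβ42 was -0.61, still called with an adjusted p of 0.00743. In microglia Apoe was 7665, 9418 and 9218 CPM in the controls, 4444, 3532 and 4397 CPM with Aβ42 and 3261, 3400 and 3982 CPM with Aβ40. The groups did not overlap, and the treated means were 47.0% and 40.5% of the control mean. The log2 fold change was -1.09 ± 0.13 (adjusted p = 2.53e-05) with Aβ42 and -1.31 ± 0.13 (adjusted p = 6.7e-06) with Aβ40. Microglial markers fell in the same astrocyte libraries, Csf1r from a mean of 124 CPM to 4.97 and 2.95 CPM and C1qa from 47.3 to 0.329 and 0.246 CPM, whereas Cd68 was at 66.2, 45.8 and 23.8 CPM in the controls, with Aβ42 and with Aβ40. The summed oligodendrocyte-lineage, neuron and astrocyte markers were lower in these libraries too. Among the astrocyte markers, however, Aqp4, Aldh1l1 and Slc1a2 were higher. The part of these markers in the lower Apoe of the astrocyte cultures was not tested.

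Lcat, whose enzyme esterifies cholesterol on lipoprotein particles, was the only one of the 10 genes called higher in control astrocytes than in control microglia. In astrocytes it was 57.9, 41.9 and 60.9 CPM in the controls, 71.6, 69.4 and 76.1 CPM with Aβ42 and 83.1, 77.9 and 86.0 CPM with Aβ40. Every treated library lay above every control. It rose by 0.43 ± 0.15 on the log2 scale with Aβ42 (adjusted p = 0.0444) and by 0.61 ± 0.15 with Aβ40 (adjusted p = 0.00856). The Aβ42 call was lost in 8 of 13 alternative analyses and the Aβ40 call in none of them. In microglia Lcat stayed between 5.13 and 6.57 CPM, on 13 to 123 counts, and no change was detectable: the 95% interval of the log2 fold change ran from -0.56 to 0.16 with Aβ42 and from -0.39 to 0.44 with Aβ40.

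Abca1, the transporter that passes cholesterol to lipid-poor apolipoproteins, fell in microglia with both fibrils and in astrocytes with Aβ42. In microglia it was 356, 357 and 416 CPM in the controls, 261, 226 and 253 CPM with Aβ42 and 271, 257 and 235 CPM with Aβ40. All treated libraries were below all controls, with log2 fold changes of -0.61 ± 0.11 (adjusted p = 0.000491) and -0.56 ± 0.11 (adjusted p = 0.00115). Astrocytes had 117, 171 and 185 CPM in the controls, 114, 105 and 116 CPM with Aβ42 and 120, 115 and 112 CPM with Aβ40. Control replicate 1 lay among the treated libraries, and the other 2 controls lay well above them. The change with Aβ42 was called (-0.50 ± 0.16, adjusted p = 0.0301) and that with Aβ40 was not (-0.45 ± 0.16, adjusted p = 0.0509), and the Aβ42 call was lost in 6 of 13 alternatives.

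Abcg1, which exports cholesterol to particles that already carry lipid, was 402, 373 and 485 CPM in control microglia. It was 235, 201 and 206 CPM there with Aβ42 and 268, 279 and 250 CPM with Aβ40, with no overlap between the 3 groups. The log2 fold change from control was -0.98 ± 0.12 (adjusted p = 2.57e-05) with Aβ42 and -0.66 ± 0.12 (adjusted p = 0.000741) with Aβ40. Astrocyte libraries had 69.0, 75.2 and 60.3 CPM in the controls, 54.2, 57.5 and 54.3 CPM with Aβ42 and 59.1, 61.5 and 54.7 CPM with Aβ40. The astrocyte values of -0.30 ± 0.13 (adjusted p = 0.0934) and -0.22 ± 0.13 (adjusted p = 0.219) did not pass the test.

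Of the 2 liver X receptor genes, Nr1h3, which encodes LXRα, was 18.7, 15.6 and 19.8 CPM in control astrocytes, 27.6, 27.5 and 24.6 CPM with Aβ42 and 22.8, 28.5 and 26.0 CPM with Aβ40. It rose by 0.55 ± 0.15 (adjusted p = 0.0148) and 0.51 ± 0.15 (adjusted p = 0.024) on the log2 scale. The Aβ42 call was lost in 1 of 13 alternatives and the Aβ40 call in 4, with adjusted p up to 0.0868. In microglia Nr1h3 was 27.6, 28.6 and 25.0 CPM in the controls, 44.0, 39.8 and 40.8 CPM with Aβ42 and 47.5, 50.6 and 53.3 CPM with Aβ40. All 6 treated libraries were above the controls, and the log2 rise was 0.61 ± 0.11 with Aβ42 (adjusted p = 0.000721) and 0.90 ± 0.12 with Aβ40 (adjusted p = 5.69e-05). The receptor gene was thus higher in the same microglia libraries in which Apoe, Abca1 and Abcg1, known LXR targets, were lower.

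Nr1h2, which encodes LXRβ, was 126, 121 and 134 CPM in control microglia, 119, 139 and 146 CPM with Aβ42 and 86.9, 101 and 103 CPM with Aβ40. Only the Aβ40 libraries stood apart, lower by 0.39 ± 0.11 on the log2 scale (adjusted p = 0.0154), a call lost in 3 of 13 alternatives. With Aβ42 the value was 0.09 ± 0.11 (adjusted p = 0.51). The astrocyte levels were 143, 35.2 and 134 CPM in the controls, 178, 157 and 112 CPM with Aβ42 and 124, 180 and 154 CPM with Aβ40. The low library is control replicate 2, which stands apart from its group in general. Neither value was called (0.51 ± 0.40 and 0.55 ± 0.40), and without that replicate they were 0.11 and 0.15.

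Ch25h rose in microglia and did not pass the test in astrocytes. In microglia it was 100, 79.0 and 91.4 CPM in the controls, 284, 321 and 368 CPM with Aβ42 and 258, 294 and 274 CPM with Aβ40. Every treated library was above every control, and the means were 360.0% and 305% of the control mean. The log2 rise was 1.85 ± 0.13 with Aβ42 (adjusted p = 1.88e-07) and 1.61 ± 0.13 with Aβ40 (adjusted p = 8.17e-07). In astrocytes Ch25h was low, at 10.9, 11.97 and 8.72 CPM in the controls, 12.01, 13.2 and 15.4 CPM with Aβ42 and 10.9, 6.31 and 7.31 CPM with Aβ40, on 39 to 175 counts. The fitted values were 0.39 ± 0.23 (adjusted p = 0.214) with Aβ42 and -0.35 ± 0.23 (adjusted p = 0.283) with Aβ40.

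Lpl, the secreted lipase that frees fatty acids for uptake, changed more than any other of the 10 genes. In microglia it was 2449, 3287 and 2956 CPM in the controls, 40.8, 11.5 and 24.5 CPM with Aβ42 and 16.9, 13.6 and 17.9 CPM with Aβ40. The raw counts behind these values were 17014 to 20793 in the controls, 102 to 429 with Aβ42 and 39 to 70 with Aβ40. The treated means were 0.883% and 0.558% of the control mean, with every treated library still above the limit of 3 counts. The log2 fold changes were -6.98 ± 0.38 (adjusted p = 2.04e-08), a 127-fold decrease, and -7.51 ± 0.40 (adjusted p = 2.12e-08), a 182-fold decrease. In astrocytes Lpl was 16.1, 30.2 and 18.4 CPM in the controls, 4.81, 4.75 and 4.804 CPM with Aβ42 and 5.82, 4.01 and 5.65 CPM with Aβ40. All 6 treated libraries were below the controls, with log2 fold changes of -2.16 ± 0.25 (adjusted p = 5.68e-05) and -2.07 ± 0.25 (adjusted p = 7.14e-05). The astrocyte level is small beside that of control microglia, and in the same astrocyte libraries the sum of microglial markers went from 463 to 588 CPM to 140 to 179 CPM and that of oligodendrocyte-lineage genes from 1730 to 2570 CPM to 1270 to 1370 CPM. Their part in the lower Lpl was not tested.

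Plin2, the droplet coat protein, went up in astrocytes and not in microglia. In astrocytes it was 62.9, 81.6 and 65.5 CPM in the controls, 194, 198 and 204 CPM with Aβ42 and 135, 132 and 147 CPM with Aβ40. The 3 groups did not overlap. It rose by 1.51 ± 0.13 on the log2 scale with Aβ42 (adjusted p = 5.15e-06), a 2.84-fold increase, and by 0.98 ± 0.13 with Aβ40 (adjusted p = 0.00014). In microglia it was 293, 355 and 375 CPM in the controls, 295, 274 and 300 CPM with Aβ42 and 224, 223 and 237 CPM with Aβ40. It was lower with Aβ40 (-0.58 ± 0.11, adjusted p = 0.00108), whereas the Aβ42 libraries overlapped the controls (-0.24 ± 0.11, adjusted p = 0.0844).

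Soat1, which esterifies cholesterol for the droplet, fell in microglia. It was 195, 213 and 216 CPM in the controls, 111, 107 and 112 CPM with Aβ42 and 88.6, 85.2 and 84.1 CPM with Aβ40. Replicates agreed closely and the 3 groups were apart, with log2 fold changes of -0.92 ± 0.09 (adjusted p = 5.1e-06) and -1.27 ± 0.10 (adjusted p = 4.62e-07). The astrocyte libraries had 28.4, 45.5 and 40.7 CPM in the controls, 47.9, 47.7 and 49.0 CPM with Aβ42 and 42.9, 39.0 and 43.7 CPM with Aβ40. The Aβ42 libraries were above all controls but the value did not pass the test (0.33 ± 0.16, adjusted p = 0.148), nor did that of Aβ40 (0.12 ± 0.16, adjusted p = 0.607).

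**Figure D2:**
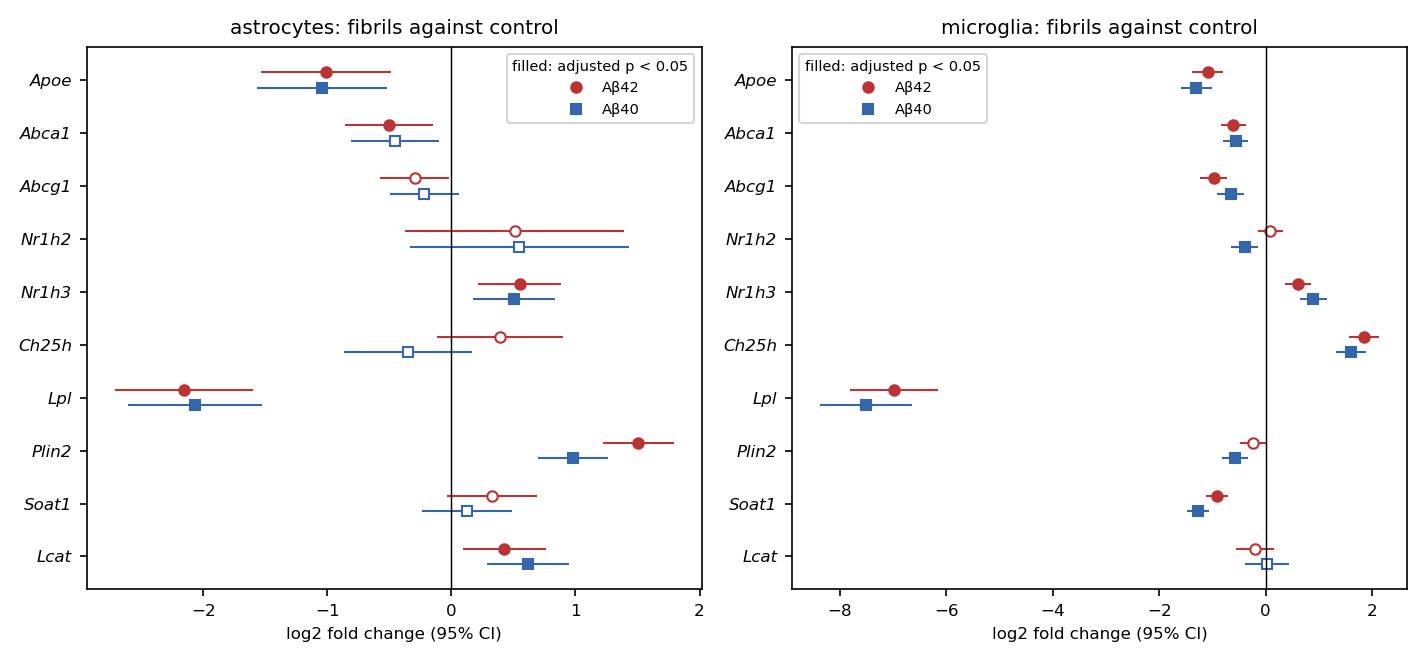
Log2 fold change from control of the 10 genes in astrocytes (left) and microglia (right), with 95% confidence intervals; red circles are Aβ42, blue squares Aβ40, and filled symbols have an adjusted p under 0.05. The 2 panels have different horizontal scales, wider in microglia because of Lpl, and Plin2 lies at 1.51 and 0.98 in astrocytes but below 0 in microglia.

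The untreated cell types already differed in these genes. On a scale common to all 18 libraries, 8 of the 10 genes were lower in control astrocytes than in control microglia and 1, Lcat, was higher, where 68.8% of all genes were called between the 2 cell types (34.2% lower and 34.5% higher). Of the 10, 8 differed by at least 2-fold, against 43.8% of all genes. Apoe averaged 2263 ± 969 CPM (SD, n = 3) in control astrocytes and 9745 ± 1070 CPM in control microglia, a log2 difference of -2.11 ± 0.21 (adjusted p = 2.71e-08). Lpl averaged 20.2 ± 7.11 and 3221 ± 476 CPM (-7.34 ± 0.35, adjusted p = 9.04e-13), the widest gap of the 10. Ch25h (-3.39 ± 0.20), Abcg1 (-2.88 ± 0.13), Soat1 (-2.69 ± 0.14), Plin2 (-2.54 ± 0.12), Abca1 (-1.50 ± 0.14) and Nr1h3 (-0.82 ± 0.13) were also lower in astrocytes, with adjusted p between 2.39e-13 and 1.68e-05. Lcat was higher in astrocytes by 2.91 ± 0.15 (adjusted p = 3.41e-12), and for Nr1h2 no difference was called (-0.53 ± 0.31, adjusted p = 0.136).

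The order of the 6 groups shows how far treatment moved each gene against that gap. For 7 of the 10 genes, Apoe, Abca1, Abcg1, Nr1h3, Ch25h, Plin2 and Soat1, all 3 microglia groups stayed above all 3 astrocyte groups. The share of all genes with such an order was not computed, so this count has no background. The control groups of the 2 cell types alone did not overlap for all 10 genes and for 67.1% of all genes tested. For Apoe the ranges of microglia Aβ42 and microglia Aβ40 overlapped, as did those of the 2 treated astrocyte groups, while the other neighbours were apart. For Lpl the treated microglia came down among the control astrocytes: microglia Aβ42 (28.5 ± 15.7 CPM), control astrocytes (20.2 ± 7.11 CPM) and microglia Aβ40 (17.9 ± 2.37 CPM) overlapped in turn, and the treated astrocytes lay below them. For Plin2 the astrocyte groups climbed from 65.4 ± 9.68 CPM in the controls to 131 ± 7.70 CPM with Aβ40 and 189 ± 7.64 CPM with Aβ42, still under the lowest microglia group at 253 ± 6.59 CPM. For Nr1h2 every neighbouring pair overlapped. For Lcat the astrocyte groups came first, at 77.9 ± 4.43 CPM with Aβ40, 68.7 ± 4.01 CPM with Aβ42 and 50 ± 9.32 CPM in the controls.

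Whether a fibril acted differently in the 2 cell types was tested as the difference between the log2 fold change in astrocytes and that in microglia. With Aβ42 this difference was called for 6 of the 10 genes, 5 positive and 1 negative, against 37.3% of all genes (17.9% and 19.3%). With Aβ40 it was called for 5, 4 positive and 1 negative, against 32.5% (16.5% and 16.0%). At 2-fold or more it was called for 4 genes with each fibril, against 24.4% and 21.4% of all genes. Lpl fell less in astrocytes, by a difference of 4.82 ± 0.46 with Aβ42 and 5.46 ± 0.46 with Aβ40, and by 5.47 with Aβ42 without the 2 libraries that stood apart. Plin2, which rose in astrocytes and was lower or not called in microglia, had a difference of 1.75 ± 0.17 and 1.58 ± 0.17. Soat1 differed by 1.25 ± 0.18 and 1.41 ± 0.19, and Ch25h, which rose in microglia, by -1.44 ± 0.27 and -1.94 ± 0.27. Abcg1 differed by 0.69 ± 0.17 with Aβ42 (adjusted p = 0.0031). Its difference of 0.46 ± 0.17 with Aβ40 was called (adjusted p = 0.0419) but lost in 14 of 19 alternatives. Lcat differed by 0.63 ± 0.21 with Aβ42 (adjusted p = 0.0263), a call lost in 4 of 19 alternatives, and by the similar value of 0.61 ± 0.23 with Aβ40, which was not called (adjusted p = 0.0609). For Apoe the difference was 0.08 (95% interval -0.50 to 0.67) with Aβ42 and 0.28 (-0.31 to 0.87) with Aβ40, which leaves room for differences up to those bounds. Abca1, Nr1h2 and Nr1h3 were not called either.

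**Figure D3:**
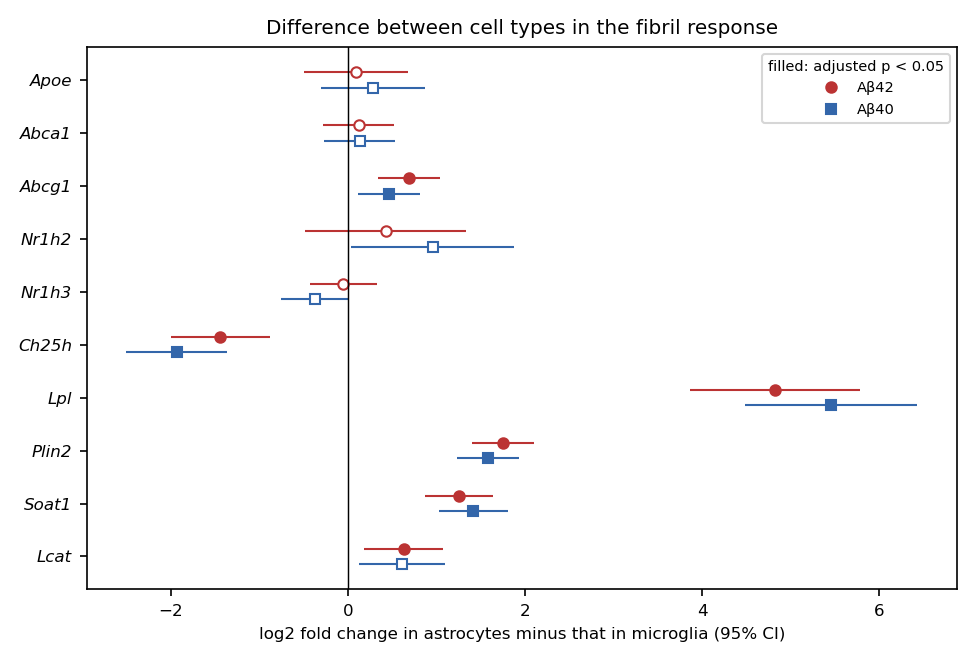
Difference between the log2 fold change in astrocytes and that in microglia for each gene, with 95% confidence intervals; red circles are Aβ42, blue squares Aβ40, and filled symbols have an adjusted p under 0.05. Lpl lies far to the right at 4.82 and 5.46, Ch25h is the called gene to the left of 0, and the Apoe intervals span 0.

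The 2 fibrils were then compared directly within a cell type. In astrocytes no gene of the 10 was called between Aβ42 and Aβ40, where 0.0855% of all genes were (10 genes), 0.0599% higher and 0.0257% lower. Of the 10, 2 had an unadjusted p under 0.05, Ch25h and Plin2, and DESeq2 called Plin2 alone. Plin2 was higher with Aβ42 than with Aβ40 in all 3 libraries, by 0.53 ± 0.12 on the log2 scale (edgeR adjusted p = 0.202), and Ch25h by 0.74 ± 0.22 (adjusted p = 0.338). For Apoe the log2 difference was 0.03, with a 95% interval from -0.49 to 0.55.

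In microglia 3 of the 10 genes were called higher with Aβ42 than with Aβ40 and none lower, against 20.3% of all genes (11.3% higher and 9.01% lower). None of the 3 differed by 2-fold, a size that 3.62% of all genes passed. These were Nr1h2 (0.48 ± 0.11, adjusted p = 0.022), Soat1 (0.36 ± 0.10, adjusted p = 0.0296) and Plin2 (0.34 ± 0.11, adjusted p = 0.0464), all without overlap between the groups. Such a lack of overlap was found for 6 of the 10 genes, beside 29.3% of all genes tested. The calls rest on the library set: leaving out microglia Aβ42 replicate 1 raised them to 6 of the 10 genes, beside 53.8% of all genes, while leaving out any other library of the 2 groups brought them to 0. Apoe (0.22 ± 0.13, adjusted p = 0.23), Lpl (0.52 ± 0.37, adjusted p = 0.309) and Ch25h (0.24 ± 0.12, adjusted p = 0.166) were not called.

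The wider pathway was read from 8 lists of 114 genes that exclude the 10, of which 89 were tested in astrocytes and 80 in microglia. In astrocytes 20 were higher and 15 lower with Aβ42, and 18 higher and 16 lower with Aβ40, so that 39.3% and 38.2% were called, near the 37.0% and 33.3% of all genes. In microglia 27 were higher and 34 lower with Aβ42, and 17 higher and 37 lower with Aβ40, or 76.2% and 67.5% beside the 53.7% and 41.0% of all genes. These shares are descriptions of the lists, which were given no test as sets. The median log2 fold change of the listed genes in microglia was -0.15 and -0.35, beside 0.01 and 0.00 over all genes. In astrocytes it was 0.12 and 0.08.

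Among 12 tested LXR partners, co-repressors and target genes, 7 fell and 1 rose with Aβ42 in microglia, and 8 fell and none rose with Aβ40, where 26.6% and 21.4% of all genes fell and 27.1% and 19.6% rose. Smpdl3a, a phospholipase-like LXR target, fell from 442 ± 14.0 CPM (SD, n = 3) to 62.4 ± 4.74 and 50.4 ± 9.20 CPM. Mylip, which encodes a ubiquitin ligase, fell from 83.8 ± 12.2 CPM to 22.8 ± 2.78 and 26.4 ± 2.56 CPM. Myo1e fell by 2.00 ± 0.16 and 1.53 ± 0.15 on the log2 scale. Rxra, the usual dimer partner of the LXRs and named here after its values were seen, fell by 1.31 and 1.92. Not all listed targets fell. Srebf1 (-0.31, adjusted p = 0.275), Scd1 (0.35, adjusted p = 0.071) and Arl4c (0.43, adjusted p = 0.0687) were not called with Aβ42. With Aβ40 Srebf1 (-1.07) and Scd1 (-0.55) were called lower and Arl4c (-0.32) was not called. The falls with Aβ42 include the co-repressor gene Ncor1 (-0.80), so the counts mix targets with regulators. In astrocytes 1 of the same 12 genes rose and 1 fell with Aβ42, and 1 rose and 2 fell with Aβ40, or 16.7% and 25.0% called beside 37.0% and 33.3% of all genes.

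Of the apolipoproteins, Apoc1, a small apolipoprotein of lipoprotein particles, was lower with both fibrils in both cell types, on raw counts of 44 to 99 in control microglia against 1 to 14 in treated ones. Its raw counts in astrocytes were low throughout, at 20, 6 and 55 in the controls and 3 to 14 in the treated libraries. Clu, the abundant glial apolipoprotein clusterin, went the other way in microglia, from 430 ± 35.6 CPM to 1350 ± 38.1 and 1210 ± 26.7 CPM. Apod also rose there, from 135 ± 6.97 to 312 ± 76.4 and 423 ± 21.4 CPM, and Pltp, which transfers phospholipid between particles, fell from 482 ± 96.7 to 99.6 ± 26.9 and 69.0 ± 5.16 CPM. All 5 tested genes of this list were called in microglia with each fibril, 2 higher and 3 lower, beside 53.7% and 41.0% of all genes. In astrocytes 3 of 8 were called with Aβ42 and 2 of 8 with Aβ40 (37.5% and 25.0%), near and under the 37.0% and 33.3% of all genes.

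Of 9 lipoprotein and lipid receptors tested in astrocytes, 2 rose and 3 fell with each fibril, or 55.6% called beside 37.0% and 33.3% of all genes. Of 10 tested in microglia, 5 rose and 4 fell with Aβ42 and 3 rose and 3 fell with Aβ40, beside 53.7% and 41.0% of all genes called. In astrocytes the HDL receptor gene Scarb1 rose from 53.4 ± 17.8 to 125 ± 20.1 and 124 ± 18.3 CPM. Sorl1, a sorting receptor, fell from 145 ± 13.4 to 44.4 ± 1.83 and 58.9 ± 1.35 CPM. The scavenger receptors Olr1 and Msr1 fell there too, Msr1 from 16.9 ± 3.33 to 5.99 ± 0.51 and 4.70 ± 0.50 CPM, in the libraries in which microglial and oligodendrocyte-lineage markers were lower. Their part in that was not tested. In microglia Scarb1 fell from 172 ± 24.6 to 73.9 ± 17.3 and 52.7 ± 4.02 CPM, Vldlr fell by 1.40 ± 0.13 and 1.64 ± 0.14 on the log2 scale, and Lsr rose by 1.61 ± 0.15 with each fibril. Cd36, the fatty acid scavenger, had 167 to 313 counts in control microglia and 0 to 3 in the treated libraries, at or under the limit of 3 counts. Its fitted fold change depends on the prior count and is not given.

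Of 14 oxysterol and PPAR genes tested in microglia, 9 fell and 4 rose with Aβ42 and 10 fell and 2 rose with Aβ40, where 26.6% and 21.4% of all genes fell and 27.1% and 19.6% rose. Pparg, a lipid-sensing nuclear receptor, had 161 to 278 counts in control microglia, 1 to 14 with Aβ42 and 0 to 2 with Aβ40. The fatty acid carriers Fabp3 and Fabp4, the latter a known PPARγ target, fell as well, Fabp3 from 44.7 ± 3.92 to 1.64 ± 0.29 and 2.14 ± 1.01 CPM and Fabp4 from 169 ± 16.1 to 61.4 ± 4.66 and 33.1 ± 4.45 CPM. The carriers did not move alike. Fabp5 rose from 256.5 to 696.2 CPM with Aβ42 (adjusted p = 3.24e-07) and 442 CPM with Aβ40 (adjusted p = 7.46e-05). Fabp7 was called lower with Aβ42 (-0.37) and was not called with Aβ40 (0.07). Cyp7b1, which breaks down 25-hydroxycholesterol, rose in both cell types, in astrocytes from 47.8 ± 8.42 to 326 ± 36.4 and 225 ± 29.1 CPM and in microglia from 2.64 ± 0.45 to 24.5 ± 5.18 and 24.6 ± 5.88 CPM. In astrocytes Cyp46a1, the cholesterol 24-hydroxylase, fell from 18.6 ± 6.09 to 4.23 ± 0.38 and 6.56 ± 0.74 CPM, and Fabp7 from 918 ± 192 to 362 ± 28.6 and 385 ± 38.4 CPM.

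The 20 tested genes of the droplet list gave 7 higher and 1 lower in astrocytes with Aβ42, and 4 higher and 1 lower with Aβ40. The called shares of 40.0% and 25.0% lay near and under the 37.0% and 33.3% of all genes. Nceh1, a neutral cholesteryl ester hydrolase, rose from 20.8 ± 3.95 to 104 ± 7.71 and 87.7 ± 10.7 CPM. Cidec, a droplet fusion protein, rose from 0.64 ± 0.44 to 7.70 ± 1.26 and 6.56 ± 0.14 CPM, on 1 to 8 counts in the controls. G0s2, an inhibitor of the triglyceride lipase ATGL, fell from 7.61 ± 1.75 to 1.72 ± 0.12 and 1.33 ± 0.22 CPM. In microglia 9 of 17 rose and 1 fell with Aβ42, and 6 rose and 2 fell with Aβ40, or 58.8% and 47.1% beside 53.7% and 41.0% of all genes. The acyl-CoA synthetase Acsl1 rose from 81.2 ± 7.03 to 294 ± 23.9 and 333 ± 11.2 CPM, and Dgat2, which makes triglyceride, from 20.5 ± 1.90 to 53.1 ± 8.19 and 41.4 ± 4.0 CPM.

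Angptl4, a secreted inhibitor of lipoprotein lipase, rose in both cell types where Lpl fell. In astrocytes it went from 9.21 ± 2.38 CPM to 190.0 ± 17.2 CPM with Aβ42 and 220.0 ± 28.8 CPM with Aβ40, log2 fold changes of 4.38 ± 0.20 and 4.59 ± 0.20. In microglia it went from 0.99 ± 0.35 CPM, on 5 to 8 counts, to 10.3 ± 2.69 and 7.45 ± 2.89 CPM. Pcsk6, a protease that cleaves lipases, fell in astrocytes by 1.45 ± 0.17 and 1.48 ± 0.17 on the log2 scale. Lipg, endothelial lipase, had at most 43 counts in an astrocyte control library, and its log2 fold changes of -1.004 ± 0.36 (adjusted p = 0.0477) and -1.05 ± 0.35 (adjusted p = 0.037) were not stable. Without control replicate 3 they were -0.33 and -0.38 (adjusted p = 0.625 and 0.558), and the calls were lost in 9 and 8 of 12 alternatives.

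Among genes of sterol movement inside the cell and the remaining transporters, Stard5 rose in astrocytes from 6.89 ± 0.88 to 28.5 ± 0.34 and 26.9 ± 1.31 CPM, Gramd1b rose by 1.37 ± 0.16 and 1.17 ± 0.16 on the log2 scale, and the peroxisomal transporter gene Abcd2 by 1.15 ± 0.26 and 1.05 ± 0.26. In microglia Lipa, the lysosomal acid lipase that frees cholesterol from its esters, fell from 545 ± 27.5 to 145 ± 3.42 and 125 ± 2.52 CPM. Of the listed genes, Rxrb, Olr1 and Tspo were called at least 2-fold higher with Aβ42 than with Aβ40 in microglia. They varied widely between the Aβ42 libraries (Tspo 81.0 ± 41.4 CPM against 29.6 ± 6.17 CPM with Aβ40), and each call was lost without some single library.

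**Figure D4:**
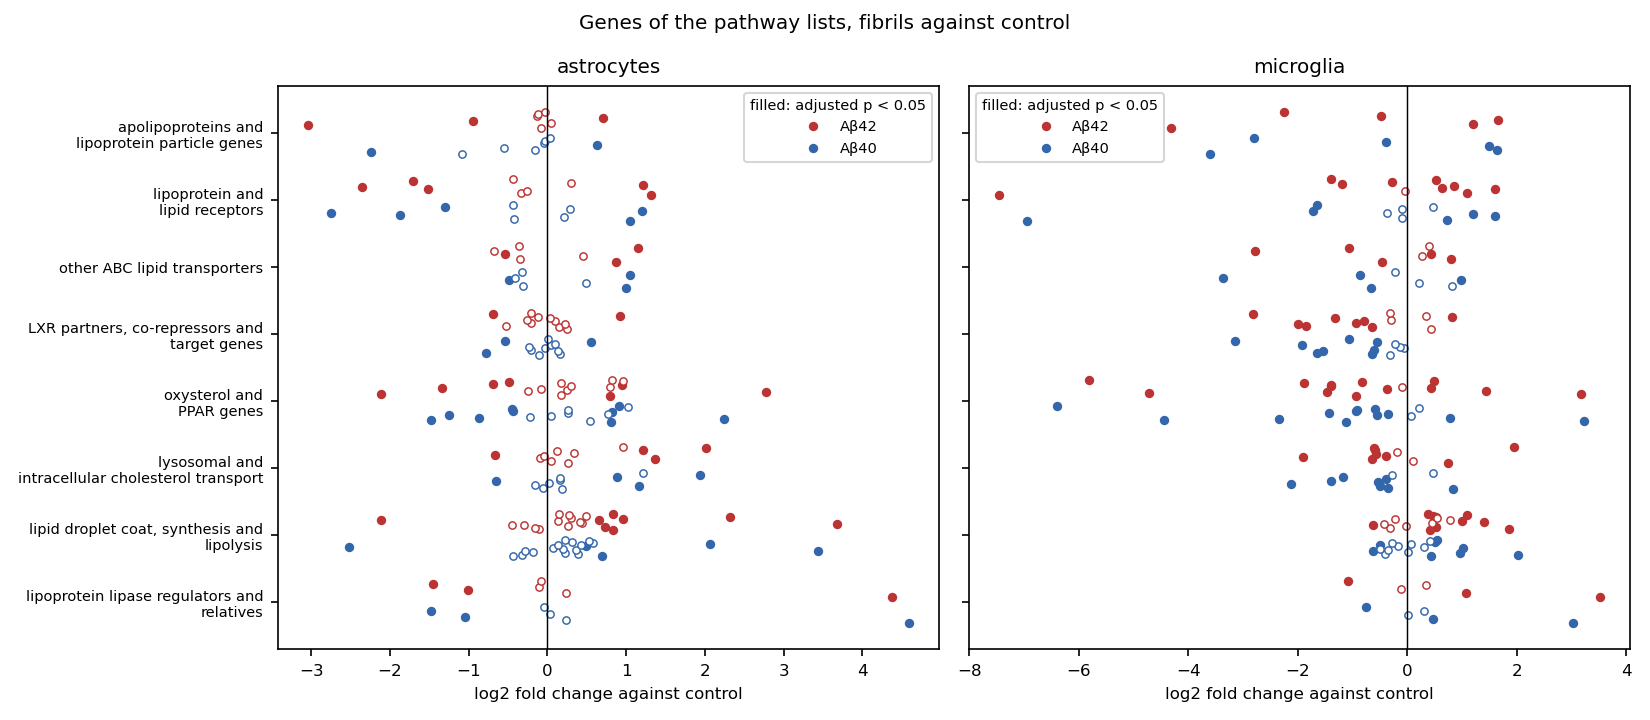
Log2 fold change from control of every tested gene of the 8 pathway lists in astrocytes (left) and microglia (right), 1 row a list; red points are Aβ42, blue points Aβ40, and filled points have an adjusted p under 0.05. In astrocytes the droplet row has 7 filled red points right of 0 and 1 left, and in microglia the LXR row has 7 filled red points left of 0 and 1 right.

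Over the 18 libraries, each centred on the controls of its own cell type, the genes whose log2 CPM followed Apoe most closely among 9886 genes were Rhov (Pearson r = 0.962), Cotl1 (0.960) and Fcna (0.957). Those closest to Abca1 were Pou2f2 (0.928), Clec4a (0.924) and Tubgcp2 (0.911). Ch25h was followed by Bcat1 (0.971), Syt4 (0.970) and Cnbp (0.962). These values describe shared treatment patterns in libraries that differ in depth, and carry no test.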

How the data were processed

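RNA-seq libraries of 3 replicates in each of 6 groups were prepared with a stranded poly(A) kit per the labels. The deposited tables hold raw counts per gene symbol that the authors made with STAR, Salmon and rn5, named in the submitters' processing notes beside DESeq2. Versions, annotation and strand setting are not given in the sources used here, so antisense reads cannot be told apart from those of a gene. The closing rows of reads off genes (21.7% to 34.2%) were left out. In astrocytes this share was 28.7% to 34.2% in the controls and 26.0% to 27.6% in the treated libraries, with no overlap. Astrocyte control replicates 1 and 2 also had the fewest counts on genes of the astrocyte libraries, 3674043 and 3949126. Whether these differences bear on the astrocyte comparisons with control was not tested. In microglia the shares of control and treated libraries overlapped. Counts were tested with edgeR 4.0.16 in R 4.3.3 (TMM, filterByExpr, quasi-likelihood fit, Benjamini-Hochberg adjustment), in 1 fit of 9 libraries per cell type (11690 and 10837 genes) and, between cell types, in 1 fit of 18 (11581 genes). The steps were tested on simulated data. CPM values carry the TMM factors of their cell type, or of all 18 libraries where said. Groups followed the labels. DESeq2 1.42.0, other scalings and filters, a replicate block, fewer groups and leaving out each library were the alternatives. The pathway genes named are, in each list and cell type, up to 3 in each direction that were called at 2-fold or more with both fibrils, plus those called at 2-fold or more between fibrils. A few more of the LXR and of the oxysterol and PPAR lists are named beside them after their values were seen. The members and lists were chosen with earlier results of these data known. All 10 member symbols matched RefSeq gene entries.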

Additional observations from a re-analysis of the deposited data

Results flagged for a closer look

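The response to a fibril differed between astrocytes and microglia, by edgeR's test of the difference between the 2 log2 fold changes over 18 libraries, for the following genes. With Aβ42 the difference (astrocytes minus microglia, log2) was 4.82 for Lpl (adjusted p = 1.47e-07), 1.75 for Plin2 (adjusted p = 1.47e-07), 1.25 for Soat1 (adjusted p = 2.84e-05), 0.69 for Abcg1 (adjusted p = 0.0031), 0.63 for Lcat (adjusted p = 0.0263) and -1.44 for Ch25h (adjusted p = 0.000317). With Aβ40 it was 5.46 for Lpl (adjusted p = 4.2e-08), 1.58 for Plin2 (adjusted p = 6.62e-07), 1.41 for Soat1 (adjusted p = 8.93e-06), 0.46 for Abcg1 (adjusted p = 0.0419) and -1.94 for Ch25h (adjusted p = 1.97e-05). These tests share the control libraries between the fibrils. Over 19 alternatives the differences of Lpl, Plin2, Soat1 and Ch25h were called each time with both fibrils, and so was that of Abcg1 with Aβ42.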

How the results depend on the processing

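Over the alternatives, 1195 of the member values kept direction and side of the threshold, 61 lost the call, 19 gained it and 15 changed sign, each of the 15 in a comparison in which the gene was not called. Of the counts of genes called, the rule of at least 2-fold lowered the members from 6 to 3 (astrocytes Aβ42), 5 to 2 (astrocytes Aβ40), 7 to 3 (microglia Aβ42), 9 to 4 (microglia Aβ40) and 3 to 0 (microglia Aβ42 against Aβ40), and all genes to 2316, 2076, 2306, 1905 and 392, and to 5078 between controls and 2827 and 2479 for the Aβ42 and Aβ40 differences between cell types. For astrocytes Aβ42 against Aβ40, all genes called went from 10 to 6 with at least 10 counts in every library, 141 with DESeq2 (1 member), 265 in a fit of these groups alone (1 member) and 0 to 4 with a library left out. For microglia Aβ42 against Aβ40 they went from 2198 to 106 in a fit of these groups alone (0 members), and with a library left out from 99 to 6004, with 0 to 6 members, the highest without Aβ42 replicate 1. Without astrocytes Aβ42 replicate 2, 3 members were called with Aβ42 in astrocytes. An alternative added after seeing the data, without astrocytes control replicate 2 and microglia Aβ42 replicate 1, gave 6531 genes for the Aβ42 difference between cell types, against 3723 to 5444 with 1 library left out.

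Replicate numbers are shared between groups, but same-numbered libraries did not deviate together (r from -0.586 to 0.403 in astrocytes and from -0.207 to 0.241 in microglia). For pairs with different numbers r ran from -0.519 to 0.577 in astrocytes and from -0.234 to 0.244 in microglia. Astrocyte control replicate 2, Aβ42 replicate 3 and Aβ40 replicate 1 did deviate together (r from 0.535 to 0.577). Each had the highest share of reads off genes in its group. With a replicate block, 0 genes were called between the fibrils in astrocytes, and 752 genes and 1 member in microglia.

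The values that changed sign with a library left out are given as ranges: Soat1 with Aβ40 in astrocytes -0.028 to 0.24, Lcat with Aβ40 in microglia -0.0026 to 0.096, between fibrils Nr1h2 -0.17 to 0.13 and Nr1h3 -0.036 to 0.12 in astrocytes and Abca1 -0.10 to 0.015 in microglia, and between cell types with Aβ42 Apoe -0.15 to 0.41, Abca1 -0.11 to 0.25, Nr1h3 -0.14 to 0.029 and with Aβ40 Abca1 -0.071 to 0.26. The difference of Nr1h2 with Aβ42 ran up to 0.65. Without both libraries named above it was -0.065, and that of Apoe was -0.11. The cause was not tested. Depth limits Lcat in microglia, Ch25h in astrocytes and genes near 3 counts such as Cd36, Pparg and Apoc1 in treated libraries, and 3 libraries a group limit all tests.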
